A study of Mus musculus with 6 samples.

Results

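The genes described here are the Wnt7 co-receptors Adgra2 (also called Gpr124) and Reck, the receptor tyrosine kinase-like Wnt receptors Ror1, Ror2, Ryk and Ptk7, and the planar polarity proteins Vangl1 and Vangl2. They were chosen by name. The array annotation assigned 16 of 45037 tested probe sets to 1 of these 8 symbols alone, and each gene had at least 1. A probe set is a group of short oligonucleotides that together read 1 transcript or several. Ror1, Ryk and Vangl2 had 3 probe sets each, Ror2 and Vangl1 had 2, and Adgra2, Reck and Ptk7 had 1.

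RNA came from endothelial cells of the mouse cerebellum at postnatal day 16, captured on magnetic beads coated with an antibody against PECAM, an endothelial surface protein. One group was Fz4-/-, lacking Frizzled4 (gene Fzd4), and the other was wild type. Both were of mixed gender on a C57Bl6/129 mixed background, and each had 3 preparations on 1 array each, giving 6 arrays. The study asked for the long-term effect of losing Frizzled4 signalling on the transcriptome of these cells. The labels do not say which part of Fzd4 was deleted or how many animals went into a preparation, so p-values measure only the spread between these preparations. Because the samples are bulk preparations, fewer cells of a type and less RNA per cell cannot be told apart.

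Frizzled4 is a receptor that passes Norrin and Wnt signals to beta-catenin in endothelial cells. In brain vessels the ligands Wnt7a and Wnt7b also reach beta-catenin signalling through Adgra2, an adhesion G protein-coupled receptor, together with Reck, a membrane-anchored glycoprotein that binds Wnt7. Ror1, Ror2, Ryk and Ptk7 instead carry or modulate Wnt signals that mostly act without beta-catenin, on cell movement and orientation, and Vangl1 and Vangl2 are core components of the planar polarity system that orients cells within a tissue.

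Fzd4 was read first, as a check of the genotypes. Its brightest probe set read between 3.04 and 4.03 on the Fz4-null arrays and between 10.20 and 10.88 on the wild-type arrays. All levels are log2 RMA expression, and differences are Fz4-null minus wild type on that log2 scale unless said otherwise. The fall was estimated at -6.94 (SE 0.34) with limma adjusted p = 0.00965, and with the replicate number as a block the limma adjusted p was 0.127. Without 1 array the Fzd4 difference lay between -7.15 and -6.61. Limma adjusted p was 0.021 without Fz4-null replicate 1 and 0.046 without wild-type replicate 3, and between 0.069 and 0.169 without any of the other 4 arrays. Array medians lay between 5.52 and 5.58, and the mean of 15 endothelial markers lay between 11.50 and 11.79 on all 6 arrays, with 0 of them under background in wild type. Background was set at 4.68, the 95th percentile of the mean levels of 44 probe sets for olfactory receptors, genes of the nasal epithelium. The Fzd4 readings in Fz4-null lay under it, so the size of its fall may be understated. A probe set with both group means under that level is called not shown above background. Above it lay 12 of the 16 probe sets, from 7 of the 8 genes, against 61.9% of all probe sets. The exceptions were the only Ptk7 probe set, the dimmer pair of Ror1 and the dimmer one of Ror2. Levels of different probe sets are not compared with each other, since probes differ in brightness.

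None of the 8 genes differed between the genotypes at an adjusted p of 0.05. Of their 16 probe sets, 0 passed over all 45037 probe sets in limma, where 0.0111% of all probe sets passed in either direction. At an unadjusted p under 0.05 there were 2 of 16, the brightest probe sets of Ror1 (higher in Fz4-null) and Ror2 (lower), against 4.46% of all probe sets. The median difference over the brightest probe sets of the 8 genes was 0.17, against 0.008 over the brightest probe sets of all 18193 genes. Over all 16 probe sets the median was smaller, 0.079, against -0.008 over all 45037 probe sets. Single differences of the 8 genes ranged from -0.80 to 0.46. The mean over all probe sets of a gene, dim ones included, gave smaller sizes for Ror1 (0.17), Ror2 (-0.48), Ryk (0.065) and Vangl1 (0.26) than the brightest probe sets described here. The 95% interval of the difference lay inside 2-fold either way for 7 of the 8 genes, all but Ror2, against 67.4% of all genes. It did so for 13 of the 16 probe sets, against 66.4% of all probe sets. Both counts include probe sets not shown above background, where differences are compressed, such as the only one of Ptk7.

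**Figure D1:**
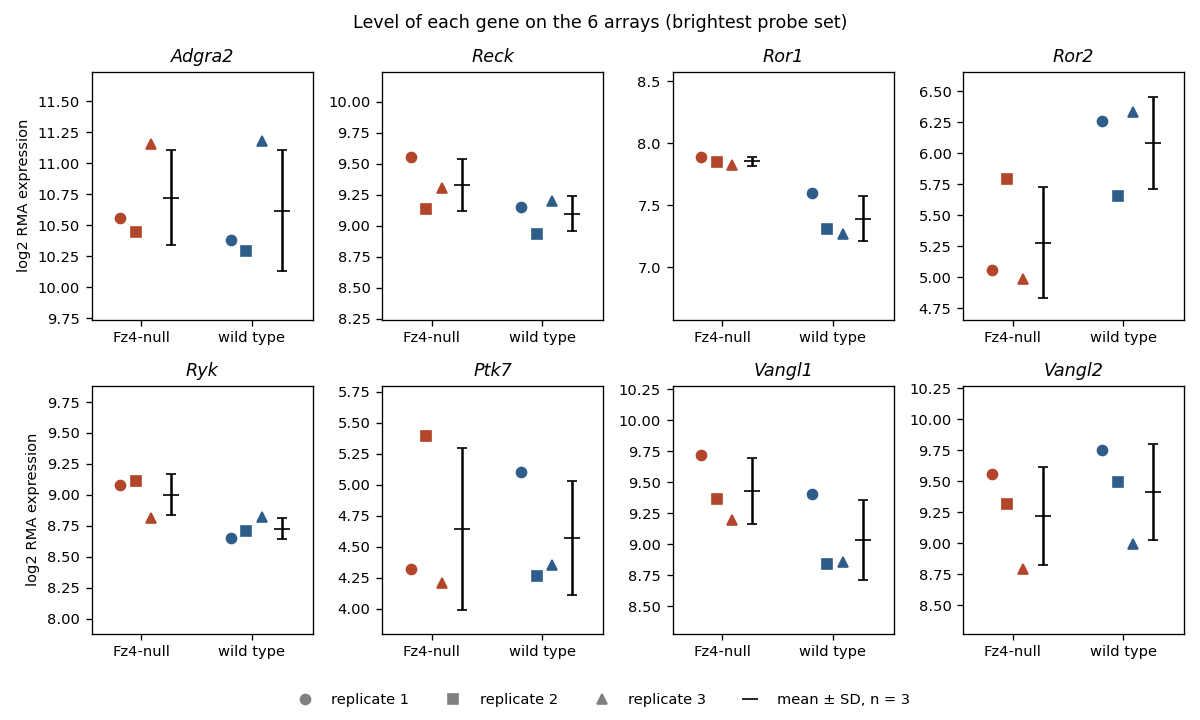
Log2 RMA expression of each gene's brightest probe set on the 3 Fz4-null arrays (left, red) and the 3 wild-type arrays (right, blue), with symbols for the replicate number and black bars for mean ± SD. Each panel spans 2 log2 units. The Ror1 groups do not overlap, Ror2 is lower on Fz4-null replicates 1 and 3, and Adgra2 is highest on the array numbered 3 of both genotypes.

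Both Wnt7 co-receptors read above background in both genotypes, and neither passed the test. Adgra2, which partners with Reck to make endothelial cells respond to Wnt7, read 10.56, 10.45 and 11.16 on Fz4-null replicates 1 to 3 and 10.38, 10.30 and 11.18 on wild-type replicates 1 to 3. The groups overlapped, and in each genotype the array numbered 3 was the highest. The group means were 10.72 ± 0.38 in Fz4-null and 10.62 ± 0.49 in wild type (SD, n = 3 each). The difference was 0.10 (95% interval -0.65 to 0.85, limma adjusted p = 1.00). By replicate number it was 0.18, 0.15 and -0.02, so it did not keep 1 sign.

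Reck, which besides binding Wnt7 inhibits membrane-type and secreted metalloproteases, read 9.55, 9.13 and 9.31 on the Fz4-null arrays and 9.15, 8.93 and 9.20 on the wild-type arrays. Fz4-null replicates 1 and 3 lay above all wild-type arrays, while Fz4-null replicate 2 lay inside the wild-type range. The means were 9.33 ± 0.21 in Fz4-null and 9.09 ± 0.14 in wild type (SD, n = 3 each). The difference of 0.24 (SE 0.19, 95% interval -0.22 to 0.69) did not pass, with limma adjusted p = 1.00. By replicate number it was 0.40, 0.20 and 0.11, above 0 each time. Without Fz4-null replicate 1, the array with the highest Reck level, the difference was 0.12. The sequence before the start of Reck is shown because Reck is the co-receptor that read higher at all 3 replicate numbers. It comes from RefSeq (build GRCm38.p6), which gave the 250 bases upstream of the start for 6 of the 8 genes, and capitals mark the motif found.
Reck upstream, chr4:43875280-43875529, plus strand: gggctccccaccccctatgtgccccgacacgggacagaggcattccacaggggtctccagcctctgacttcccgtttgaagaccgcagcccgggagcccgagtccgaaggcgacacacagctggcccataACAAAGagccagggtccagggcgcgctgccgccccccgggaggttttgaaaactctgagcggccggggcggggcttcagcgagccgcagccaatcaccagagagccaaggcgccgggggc
Cores of 3 motifs were searched on both strands, namely TCF/LEF (CTTTGAA or CTTTGAT), the factors that beta-catenin binds, SOX (ACAATG or ACAAAG) and ETS (CCGGAAG). Read on the opposite strand, the SOX core ACAAAG is CTTTGT, which parts from the TCF/LEF letters searched only at its last base. The same stretch could therefore not be marked as both, whatever factor binds it. The Reck window held 1 SOX core, ACAAAG, which is in capitals. Over the 32851 upstream windows of this length in RefSeq, 25.2% held a SOX core, 7.48% a TCF/LEF core and 6.91% an ETS core. None of the 6 genes' windows held a TCF/LEF or an ETS core, and those of Reck, Ror2 and Vangl2 held 1 SOX core each.

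The Ror pair gave the differences of lowest p, in opposite directions. Ror1 and Ror2 are single-pass receptors with a Frizzled-like cysteine-rich domain that bind Wnt5a. The brightest Ror1 probe set read 7.89, 7.85 and 7.83 on the Fz4-null arrays and 7.60, 7.31 and 7.27 on the wild-type arrays. All Fz4-null arrays lay above all wild-type arrays, the only 1 of the 16 probe sets higher without overlap, against 4.08% of all probe sets, and 0 of the 16 were lower without overlap, against 5.18%. The means were 7.85 ± 0.03 in Fz4-null and 7.39 ± 0.18 in wild type (SD, n = 3 each), a ratio of 1.38. The difference was 0.46 (SE 0.17, 95% interval 0.05 to 0.88), with unadjusted p = 0.034 and adjusted p = 1.00 in limma. By replicate number it was 0.29, 0.54 and 0.56. The other Ror1 probe sets lay between 2.27 and 4.09 on all arrays, not shown above background, with differences of 0.09 and -0.03.

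Ror2 read lower in Fz4-null at its brightest probe set, and this was the widest gap among the 8 genes. Its levels were 5.06, 5.79 and 4.98 on the Fz4-null arrays and 6.26, 5.65 and 6.33 on the wild-type arrays. Fz4-null replicates 1 and 3 lay below all wild-type arrays, while the arrays numbered 2 of both genotypes met in the middle. The means were 5.28 ± 0.45 in Fz4-null and 6.08 ± 0.37 in wild type (SD, n = 3 each), a ratio of 0.574. The difference was -0.80 (SE 0.30, 95% interval -1.52 to -0.09), with unadjusted p = 0.033 and adjusted p = 1.00 in limma. By replicate number it was -1.20, 0.14 and -1.35, and without both arrays numbered 3 it was -0.53. Leaving out 1 array gave values between -1.06 (without Fz4-null replicate 2) and -0.65 (without Fz4-null replicate 3). The other Ror2 probe set lay between 1.92 and 2.95, not shown above background, with a difference of -0.15. The upstream sequences of the Ror pair are shown because these genes gave the lowest p values among the 8 and in opposite directions.
Ror1 upstream, chr4:100095541-100095790, plus strand: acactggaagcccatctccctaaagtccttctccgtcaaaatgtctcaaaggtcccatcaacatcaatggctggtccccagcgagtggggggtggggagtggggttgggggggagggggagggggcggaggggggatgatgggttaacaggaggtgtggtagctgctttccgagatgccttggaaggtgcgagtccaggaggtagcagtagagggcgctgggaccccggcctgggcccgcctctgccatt
Ror2 upstream, chr13:53286125-53286374, minus strand: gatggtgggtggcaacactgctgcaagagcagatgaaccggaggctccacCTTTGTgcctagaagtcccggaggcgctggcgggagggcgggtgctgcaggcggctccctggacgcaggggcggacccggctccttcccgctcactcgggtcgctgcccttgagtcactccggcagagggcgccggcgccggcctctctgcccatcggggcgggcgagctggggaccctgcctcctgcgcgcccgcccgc
The Ror1 window held none of the letters searched. The Ror2 window held 1 SOX core, ACAAAG on the opposite strand, in capitals. GC made up 62.4% of the Ror1 window and 73.2% of the Ror2 window, and the windows of Reck (68.4%), Ryk (65.2%), Ptk7 (64.0%) and Vangl2 (73.6%) also lay above the median of 52.4% over all windows.

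**Figure D2:**
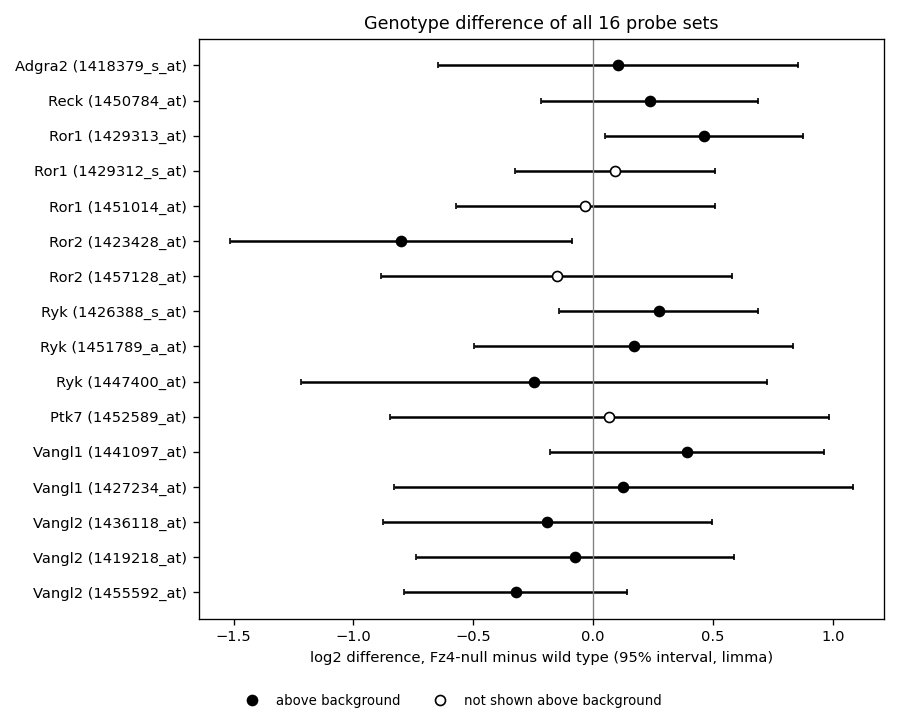
Log2 difference (Fz4-null minus wild type) of all 16 probe sets with its 95% interval from limma, open circles for probe sets not shown above background. The intervals of the brightest Ror1 and Ror2 probe sets leave out 0 before adjustment, and the other 14 include it.

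Ryk, a Wnt-binding receptor with an inactive kinase domain, gave different signs at its probe sets. The brightest read 9.08, 9.11 and 8.81 on the Fz4-null arrays and 8.65, 8.71 and 8.82 on the wild-type arrays. Fz4-null replicates 1 and 2 were above all wild-type arrays, and both arrays numbered 3 were nearly level. The means were 9.00 ± 0.17 in Fz4-null and 8.73 ± 0.09 in wild type (SD, n = 3 each), with a difference of 0.27 (95% interval -0.14 to 0.69, limma adjusted p = 1.00). The second Ryk probe set differed by 0.17 and the third by -0.25, neither past the threshold. The brightest may bind more than 1 transcript, and where on the transcript each one lies was not analysed here.

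Ptk7, a kinase-dead receptor needed for planar polarity in vertebrates, was not shown above background. Its probe set read 4.32, 5.39 and 4.21 on the Fz4-null arrays and 5.10, 4.27 and 4.35 on the wild-type arrays. The higher array was numbered 2 in Fz4-null and 1 in wild type, and the groups overlapped fully. The means were 4.64 ± 0.65 in Fz4-null and 4.57 ± 0.46 in wild type (SD, n = 3 each), and the difference was 0.07 (95% interval -0.85 to 0.98, limma adjusted p = 1.00).

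The planar polarity proteins Vangl1 and Vangl2, close relatives that bind Prickle and Dishevelled proteins, read in opposite directions by little. The brightest Vangl1 probe set read 9.72, 9.37 and 9.19 on the Fz4-null arrays and 9.41, 8.84 and 8.86 on the wild-type arrays. The groups overlapped through wild-type replicate 1, yet each Fz4-null array was above the wild-type array of its number, by 0.31, 0.53 and 0.34. The means were 9.43 ± 0.27 in Fz4-null and 9.04 ± 0.32 in wild type (SD, n = 3 each), and the difference was 0.39 (SE 0.24, 95% interval -0.18 to 0.96, limma adjusted p = 1.00). Without Fz4-null replicate 1 it was 0.25. The other Vangl1 probe set did not repeat the order by number, with differences of 0.75, 0.05 and -0.43.

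The brightest Vangl2 probe set read 9.56, 9.32 and 8.79 on the Fz4-null arrays and 9.75, 9.50 and 8.99 on the wild-type arrays. The groups overlapped almost entirely, and both arrays numbered 3 were the lowest of their genotype. The means were 9.22 ± 0.39 in Fz4-null and 9.41 ± 0.39 in wild type (SD, n = 3 each), with a difference of -0.19 (SE 0.29, 95% interval -0.88 to 0.49, limma adjusted p = 1.00). By replicate number the differences were close to each other, at -0.19, -0.18 and -0.20. With the replicate number as a block the Vangl2 difference had a SE of 0.14, with unadjusted p = 0.219 in limma. That fit gave 2 of the 16 probe sets an unadjusted p under 0.05, the brightest of Ror1 and Vangl1, against 8.70% of all probe sets, and 0 an adjusted p under 0.05, against 0% of all. A dimmer Vangl2 probe set, with means of 5.70 in Fz4-null and 6.03 in wild type, also read lower at each number, by -0.28, -0.38 and -0.31 (difference -0.32, limma adjusted p = 1.00), while the remaining one had a difference of -0.08 and mixed signs. The differences by number were above 0 at all 3 numbers for 3 of the 16 probe sets (Reck and the brightest of Ror1 and Vangl1), against 15.5% of all probe sets. They were below 0 at all 3 numbers for 2 of the 16 (both Vangl2), against 16.2% of all probe sets.

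For 3 of the 8 genes the arrays numbered 3 differed from the rest more than the genotypes did, against 67.4% of all genes. Each gene was read from its brightest probe set for this count. On the arrays numbered 3 Adgra2 averaged 11.17, against 10.42 on the other 4, a difference of 0.75 that was present in both genotypes. The brightest Vangl2 probe set averaged 8.89 on the arrays numbered 3, against 9.53 on the others. The dimmer Vangl1 probe set averaged 9.15 on the arrays numbered 3, against 8.27 on the others, and the second Ryk probe set 8.57 against 8.06. Both arrays numbered 3 lay above the other 4 for 3 of the 16 probe sets, against 17.0% of all probe sets, and below them for 2 of the 16, against 19.7%. The contrast of the number 3 arrays with the rest was wider than the genotype contrast for 8 of the 16 probe sets, against 66.2% of all probe sets. The labels do not say what the replicate number stands for. With a batch term for the arrays numbered 3, chosen after seeing the data and unable to move a difference because each genotype has 1 such array, 0 of the 16 probe sets passed an adjusted p of 0.05 in limma, with 2 at an unadjusted p under 0.05. Over all probe sets that fit called 0.00444% at the adjusted and 8.65% at the unadjusted threshold.

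**Figure D3:**
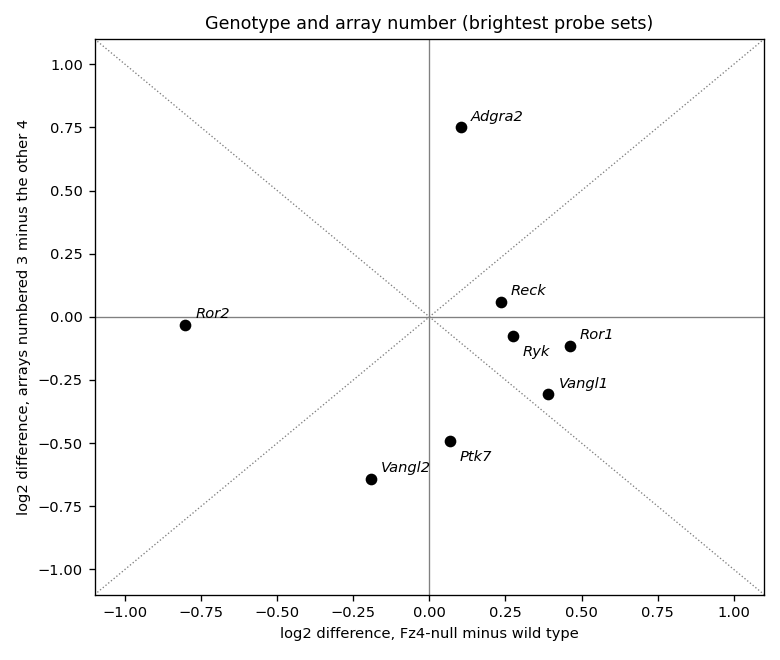
Each point is the brightest probe set of 1 gene, with the log2 difference between genotypes (Fz4-null minus wild type) across and the log2 difference between the arrays numbered 3 and the other 4 upward. Dotted lines mark equal size. Adgra2 (0.75 by number, 0.10 by genotype), Vangl2 and Ptk7 lie where the contrast by number is wider, and Ror2 and Ror1 where the genotype contrast is. For Ptk7, not shown above background, the arrays numbered 3 overlapped the other 4.

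Markers of other cells in the preparations differed between arrays. On Fz4-null replicate 1 the mean level of 11 fibroblast and meningeal markers lay -2.54 from the wild-type mean, that of 11 microglia and macrophage markers -2.88, that of 10 astrocyte and Bergmann glia markers -1.97 and that of 12 pericyte and smooth muscle markers -1.40. On Fz4-null replicates 2 and 3 the fibroblast list lay at 0.57 and -0.54, and the pericyte list at 0.04 and 0.26. The fibroblast list's mean ranged from 6.21 to 9.32 in Fz4-null and from 8.58 to 9.08 in wild type, with 1 of 11 markers under background in wild type. The 9 choroid plexus markers averaged 5.04, 5.61 and 5.35 on the Fz4-null arrays and 6.24, 6.20 and 8.55 on the wild-type arrays. Relative to the wild-type mean of the list on the log2 scale, the fibroblast list lay lowest on Fz4-null replicate 1. On Fz4-null replicates 1 to 3 Ror2 read 5.06, 5.79 and 4.98, where the fibroblast list lay at -2.54, 0.57 and -0.54. On wild-type replicates 1 to 3 Ror2 read 6.26, 5.65 and 6.33, where that list lay at -0.16, -0.17 and 0.33. Without Fz4-null replicate 1 the Ror2 difference was -0.69. Choroid plexus markers were highest on wild-type replicate 3, and when that array was left out the Ror2 difference was -0.68. The choroid plexus list was lower on every Fz4-null array than on every wild-type array. Leaving out 1 array therefore cannot separate this list from the genotype. The part of other cell types in the Ror2 difference was not tested. For Ror1 the differences without Fz4-null replicate 1 and without wild-type replicate 3 were 0.44 and 0.40. On Fz4-null replicates 1 to 3 the endothelial list exceeded its average in wild type by 0.24, 0.16 and 0.15, and its part in the readings of Ror1, Vangl1, Reck and Ryk was not tested.

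**Figure D4:**
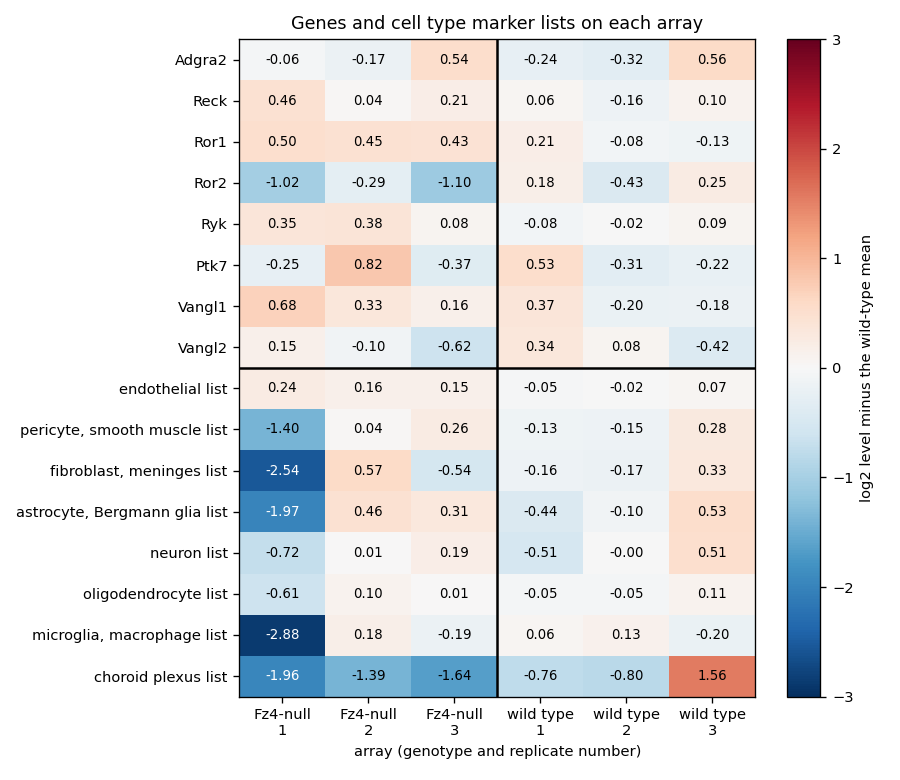
Log2 level on each array minus the wild-type mean, for the brightest probe set of the 8 genes (upper block) and the mean of each cell type marker list (lower block), Fz4-null arrays left of the line and wild-type arrays right. Fz4-null replicate 1 is low in fibroblast, microglia, astrocyte and pericyte markers (-2.54, -2.88, -1.97 and -1.40), and all Fz4-null arrays are low in choroid plexus markers.

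The genes that act with these receptors were read from 6 lists by function, each gene from its brightest probe set. Of 66 listed genes 62 were measured, and 1 passed an adjusted p of 0.05 in limma, namely Fzd4, the deleted gene. With the replicate block 0 passed. The median difference over the 62 genes was 0.004, close to the 0.008 over all genes. At an unadjusted p under 0.05 there were 3 higher and 3 lower in Fz4-null. The lower ones included Fzd4 itself and 1 gene not shown above background. Of all probe sets 2.08% were higher and 2.37% lower. Those shares cover every probe set, dim ones included, and not 1 per gene, so they are only a rough measure for the 62 genes.

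Among 10 Wnt7 and Norrin ligands, receptors and co-receptors, 0 were higher and 1, Fzd4, was lower at the adjusted threshold (median -0.15). The ligands Wnt7a and Wnt7b, named after their values were seen because Adgra2 and Reck serve them, were not shown above background, with means of 3.74 and 4.25 in Fz4-null and of 3.61 and 4.50 in wild type. All 4 ligands that act mainly without beta-catenin read lower in Fz4-null (median -0.33), and 0 of 4 passed in either direction. Wnt5a, the ligand of Ror2, had the lowest p of these, at 8.86, 8.87 and 7.88 on the Fz4-null arrays and 9.75, 9.61 and 8.31 on the wild-type arrays. Its groups overlapped, and both arrays numbered 3 were the lowest of their genotype (difference -0.68, SE 0.46, limma adjusted p = 1.00). By replicate number the Wnt5a difference was -0.89, -0.74 and -0.42, and with the number as a block its SE was 0.16 and its limma adjusted p 0.489.

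Of 12 planar polarity genes 0 passed in either direction (median 0.05). Celsr1, an atypical cadherin of the planar polarity core, read 7.56, 6.27 and 6.03 on the Fz4-null arrays and 4.90, 5.26 and 5.75 on the wild-type arrays, without overlap (difference 1.32, SE 0.44, unadjusted p = 0.020 and adjusted p = 1.00 in limma). Fz4-null replicate 1 was the highest of all. Of 20 effectors that relay these signals, 0 passed in either direction (median 0.01), and Nfatc2, a calcium-regulated transcription factor, had the lowest p (difference 0.53, SE 0.23, limma adjusted p = 1.00). Of 6 proteases that Reck restrains or is linked to, 0 passed in either direction, 5 read higher and 1 lower (median 0.27). Only 4 of the 6 were shown above background, and the 1 that read lower was not among them. The membrane-anchored metalloprotease Mmp14 averaged 7.68 ± 0.44 in Fz4-null and 7.02 ± 0.31 in wild type (SD, n = 3 each, difference 0.66, limma adjusted p = 1.00). Of 10 other adhesion G protein-coupled receptors, the family of Adgra2, 0 passed in either direction (median 0.004). Adgrg1 averaged 10.01 ± 0.43 in Fz4-null and 9.28 ± 0.19 in wild type (SD, n = 3 each), without overlap (difference 0.73, limma adjusted p = 1.00).

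**Figure D5:**
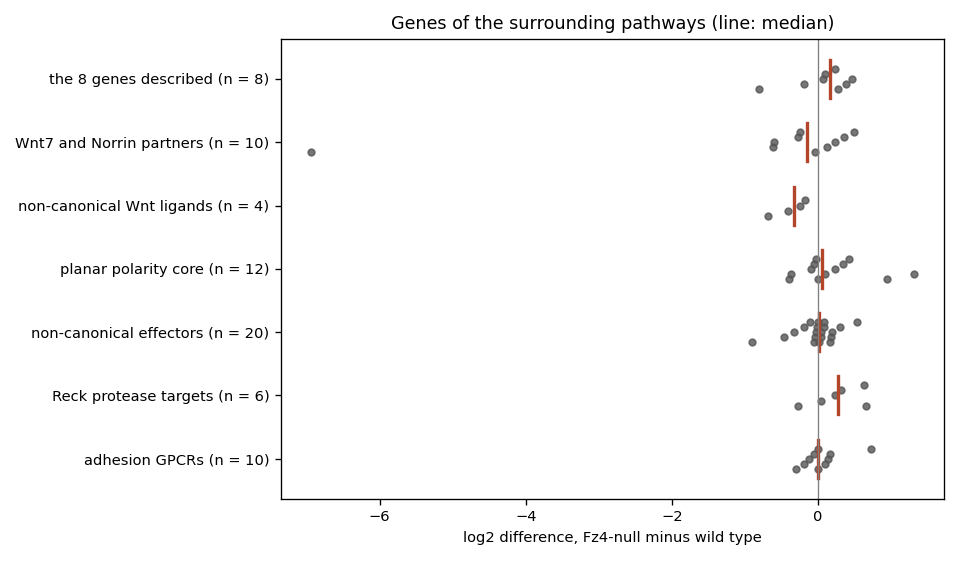
Log2 difference (Fz4-null minus wild type) of each measured gene in the 8 genes described and in 6 lists of genes that act with them, 1 point per gene from its brightest probe set and a red line at the median. Fzd4 lies alone at -6.94, and the medians of the lists lie between -0.33 and 0.27.

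Profiles most like those of Ror2 and Ptk7, whose levels spanned at least 1 log2 unit over the 6 arrays, were sought among 10926 genes above the median level. Likeness was the root mean square difference between the profiles, each centred on its own mean. For Ror2 the closest were Gm30054 (0.18), Fam20c (0.20) and Cep170b (0.23), in log2 units. Fam20c, a kinase of secreted proteins, read 7.09, 7.78 and 7.34 on the Fz4-null arrays and 8.25, 8.12 and 8.28 on the wild-type arrays, without overlap, and its difference of -0.81 did not pass (limma adjusted p = 0.897). A genotype difference near that of Ror2 follows from choosing genes by likeness of profile, so it is no separate result. For Ptk7, which is itself not shown above background, the closest were Rab26os (0.19), Cdc42bpg (0.19) and Pgm1 (0.22).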

How the data were processed

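RNA of 6 preparations was measured on Affymetrix 3' arrays. Per the submitters' processing notes, the authors deposited log2 expression computed with RMA, which subtracts background, brings arrays to a common distribution and combines the probes of a set. No release of it is named in the sources used here. Differences near background are compressed by it. Library depth does not apply. Precision is limited by the number of arrays. The array type and its gene annotation came from the platform's table, where 34945 of 45037 probe sets carried 1 symbol, 64 control probe sets being left out. All 8 genes matched RefSeq by identifier.

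The genotype test was limma 3.58.1 under R 4.3.3 (lmFit, then eBayes with no trend, two-sided) over all 6 arrays and 45037 probe sets, with Benjamini-Hochberg adjustment at 0.05. Values are mean ± SD, n = 3, with moderated SE and 95% intervals. With 3 arrays a side no exact permutation p can be under 0.1, so that test was not used. A gene was read from its brightest probe set.

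The 8 genes, the lists and the alternatives were chosen with earlier results of these data known. Named were all probe sets of the 8 genes, per list the genes past the threshold or else the 1 with the lowest p, and the 3 genes of most similar profile. Wnt7a and Wnt7b were added after their values were seen.

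Replicates are numbered 1 to 3 in both genotypes. Deviations from group means correlated at 0.244, 0.303 and 0.574 for equal numbers, each over the 0.1 that pairing requires, but also at 0.262 and 0.124 between unlike numbers 1 and 2, so the pairing is clear only for number 3. The block was fitted as an alternative, with 2 residual degrees of freedom against 4.

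On simulated data of 45037 probe sets, limma recovered 0% of probe sets changed by log2 0.5, 1.60% at 1, 80.0% at 2 and 98.4% at 4. At most 0.351% of probe sets held identical values in any pair of arrays. Figures were drawn with matplotlib 3.10.9.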

Additional observations from a re-analysis of the deposited data

How the results depend on the processing

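None of the 16 probe sets passed an adjusted p of 0.05 under the alternatives that kept it, nor 0.1 in the fit of all arrays. The lowest limma adjusted p over 17 alternatives was 0.504, for Ror1 with the batch term. The replicate block, the batch term and the variance trend cannot move a difference, and 40 of 134 recomputed differences of the 8 genes equalled the first value. Of the 94 that moved, 87 kept their sign, among them all of Reck, Ror1, Ror2, Ryk and Vangl1. Averaging every probe set of each gene gave 0.17 for Ror1, -0.48 for Ror2, 0.065 for Ryk and 0.26 for Vangl1, against 0.46, -0.80, 0.27 and 0.39 from the brightest. Leaving out 1 array in turn gave Adgra2 -0.12 to 0.39, Ptk7 -0.31 to 0.33 and Vangl2 -0.40 to 0.024, and the sign turned in 7 of these fits. Adgra2 read -0.12 when Fz4-null replicate 3 was left out, and -0.017 and -0.059 when wild-type replicate 1 or 2 was. Ptk7 read -0.31 when Fz4-null replicate 2 was left out, and -0.085 and -0.043 when wild-type replicate 2 or 3 was, and Vangl2 read 0.024 without Fz4-null replicate 3. These are differences within the spread between arrays.

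The number of the 16 probe sets with an unadjusted p under 0.05 was 2 with all arrays, against 4.46% of all probe sets. It was 1 under quantile normalization, cyclic loess, a variance trend with robust estimation and array weights, 0 without both arrays numbered 3, and 0 to 1 when 1 array was left out. The share of all probe sets under these settings is not given here, so the lower counts are not read as a result about the 8 genes. With the replicate block the number was 2, against 8.70% of all probe sets. In that fit limma gave unadjusted p = 0.028 for Ror1, 0.044 for Vangl1 and 0.067 for Ror2, whose adjusted p were 0.542, 0.566 and 0.592. The block left 0 pathway genes past the adjusted threshold against 1 (Fzd4) without it, and leaving out 1 array left 0 to 1. Fewer arrays leave fewer degrees of freedom. Among the 8 genes and the pathway genes the block changed no other adjusted call. The only Adgra2 probe set may bind more than 1 transcript, and Ptk7 lies under the median level, so the filters on these gave no value for them. The brightest Ryk probe set may also bind more than 1 transcript. Without such probe sets Ryk was read from its second one, with a difference of 0.17.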
